A study of Homo sapiens with 3 samples.

Results

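The G1/S and DNA replication genes are 42 human genes that carry a cell from the decision to divide through the copying of its DNA. They were chosen by name, as all probe sets whose platform gene symbol is exactly that of a member, and 85 probe sets on the array name 1 of them alone. Of these, 76 passed a filter on level (mean log2 signal over the 3 arrays at or above the median of all probe sets), and all 42 genes had at least 1 such probe set, of 12961 genes that did in the series. The cells were undifferentiated khES3, a human embryonic stem cell line that is established in culture. For 5 hours they were kept either in complete medium or in a medium deprived of leucine or of lysine, which are essential amino acids that cells must take up. Total RNA of each condition was read on 1 Affymetrix array, 3 arrays in all, so no difference below has a replicate check or a p-value, and every value describes 1 culture of 1 cell line.

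In G1, D-type cyclins with CDK4 and cyclin E with CDK2 phosphorylate the retinoblastoma protein, which releases the E2F transcription factors, and these switch on much of the replication machinery. ORC, CDC6 and CDT1 load the MCM2-7 helicase on origins. CDC45 and GINS then activate it, and polymerases with their sliding clamp copy the DNA from nucleotides that RRM1, RRM2, TYMS and TK1 help to supply. Human embryonic stem cells are known for a short G1 phase.

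Since E2F factors bind many promoters of this group, the 250 bases before the start of 4 members are shown first: E2F1 and PCNA, which were lower after leucine removal, and CDT1 and RFC4, which were the 2 members highest after lysine removal. The sequences are from RefSeq (GRCh38.p14), 5′ to 3′ on the gene's strand, and capitals mark matches to the E2F motif searched (TTNNCGC with C or G at each N, on both strands).
E2F1 chr20:33686386-33686635, minus strand: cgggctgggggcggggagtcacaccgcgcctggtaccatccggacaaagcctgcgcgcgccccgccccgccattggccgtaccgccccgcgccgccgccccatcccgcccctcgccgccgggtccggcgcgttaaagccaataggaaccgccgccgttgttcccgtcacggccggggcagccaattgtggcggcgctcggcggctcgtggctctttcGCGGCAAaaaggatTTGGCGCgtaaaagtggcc
PCNA chr20:5126623-5126872, minus strand: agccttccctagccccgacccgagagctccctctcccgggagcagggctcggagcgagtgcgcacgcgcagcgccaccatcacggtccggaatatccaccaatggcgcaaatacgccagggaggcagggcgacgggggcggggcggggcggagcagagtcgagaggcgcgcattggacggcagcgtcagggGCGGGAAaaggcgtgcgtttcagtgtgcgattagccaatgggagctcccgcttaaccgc
CDT1 chr16:88803539-88803788, plus strand: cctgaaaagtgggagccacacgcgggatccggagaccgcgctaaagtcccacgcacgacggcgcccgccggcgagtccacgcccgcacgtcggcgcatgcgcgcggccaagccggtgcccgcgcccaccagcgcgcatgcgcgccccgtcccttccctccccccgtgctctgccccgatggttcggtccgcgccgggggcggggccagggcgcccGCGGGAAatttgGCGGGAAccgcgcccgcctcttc
RFC4 chr3:186806483-186806732, minus strand: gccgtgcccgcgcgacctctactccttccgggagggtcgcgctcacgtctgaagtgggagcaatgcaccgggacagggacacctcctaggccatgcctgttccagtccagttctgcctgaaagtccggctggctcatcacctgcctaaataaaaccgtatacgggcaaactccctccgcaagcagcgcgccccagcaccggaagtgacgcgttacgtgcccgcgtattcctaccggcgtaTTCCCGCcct
The E2F1 promoter held 2 matches, the nearer starting 19 bases before the start, and CDT1 also held 2, of which the nearer started 23 bases before. PCNA has 2 start sites in the table, and the window of the one shown held 1 match, 59 bases before the start, while the other held none. RFC4 held 1, 10 bases before. The RefSeq table had a promoter for 36 of the 42 members (CCND1, CCND2, CCNE2, CDK2, MCM4 and MCM5 had no entry), with 46 start sites among them. Of these 46 windows 21 held the motif (45.7%), against 10.9% of all 35116 windows and 15.7% of the 15293 windows of genes that passed the level filter. Per gene, a match was found in 5 of the 8 members at least 1.5-fold lower after either removal, in both CDT1 and RFC4, and in 13 of the 26 other members with an entry. That is 55.6% of the 36 members with an entry, against 20.9% of genes that passed the level filter and 13.0% of all genes in the table. FEN1, CHAF1B and CDC45, all lower as described below, had no match in these windows. Matches are letters in a window and not evidence of binding.

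Signals are on the linear scale the authors deposited and are given in the order complete, leucine-deprived, lysine-deprived. Differences are in log2 signal, where 1 is 2-fold and 0.58 is 1.5-fold, and where a pair follows a gene the first is leucine and the second lysine removal, each over complete medium. Before taking log2, signals were raised to a floor, the 40th percentile of each array (54.6 for complete medium, 56.7 for leucine removal and 62.4 for lysine removal). A gene is represented by its brightest kept probe set, and none of the 42 representatives lay at the floor. With no replicates, the spread between probe sets of 1 gene is the only error to be had. Over the 24 members with 2 or more kept probe sets its SD was 0.45 for the leucine removal difference, 0.47 for that of lysine removal and 0.61 between the deprived arrays. Over the 5981 such genes on the array it was 0.49, 0.57 and 0.58. Among brighter probe sets only, at or above the median gene level, it was smaller, at 0.21, 0.30 and 0.29 (2016 genes). These SDs leave out the spread between cultures. As a check on the cells, 11 of 12 stem cell markers passed the level filter, with signals of at least 2218 on every array and summed signals of 234818, 249121 and 242292. The remaining marker, TDGF1, had no kept probe set. Probe sets with several gene symbols were left out of this check. GDF3 alone of these markers was past 1.5-fold against complete medium, lower on both deprived arrays (6075, 3949 and 2218, or -0.62 and -1.45). Of 10 fibroblast and feeder cell markers 6 passed, with summed signals of 16001, 17962 and 22773, most of it from COL1A1. Probe sets that name 1 of the other 4 alone (COL3A1, LUM, FAP and PDGFRB) did not pass 106.6 on any array. The part of fibroblasts and feeder cells in the results was not tested. As a check on the deprivation, the amino acid response genes ASNS, TRIB3, DDIT3, CHAC1 and SESN2 were each at least 2-fold higher after both removals, ASNS by 1.29 and 1.36, TRIB3 by 3.80 and 3.75, DDIT3 by 3.15 and 3.12, CHAC1 by 2.69 and 2.54 and SESN2 by 1.49 and 1.22.

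The first comparison asks how the G1/S and replication genes stood after leucine removal. Most were slightly lower than in complete medium: 28 of 42 lay below 0 (66.7%, against 48.3% of all genes), and the median was -0.15, against 0.01 over all 12961 genes. At least 1.5-fold lower were E2F1, CHAF1B, TK1, E2F2, PCNA and FEN1, and at least 1.5-fold higher was CDT1. That is 6 of 42 lower (14.3%), beside a background of 7.74% of all genes, and 1 of 42 higher, beside 10.9%. Past 2-fold lay 1 member, E2F1, on the lower side (background 2.58%) and none on the higher side (background 3.8%). Brighter genes vary less, and 37 members lay at or above the median level of the genes kept. Of these 37, 3 were at least 1.5-fold lower (PCNA, FEN1 and TK1; 8.11%), beside 1.67% of the 6481 brighter genes, and 1 was higher (CDT1), beside 3.7%. With each array centred on its median signal, which shifted all genes by -0.13, 11 of 42 members were at least 1.5-fold lower, beside 11.04% of all genes. In RNA of whole cultures, fewer cells in S phase and less mRNA per cell cannot be told apart.

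The second comparison sets lysine removal against complete medium. Again 27 of 42 members lay below 0 (64.3%, against 49.5% of all genes), and the median was -0.12, against 0.00 over all genes. At least 1.5-fold lower were CHAF1B, E2F2, CDC45, FEN1, PCNA and MCM3, and at least 1.5-fold higher were CDT1 and RFC4. The 6 lower members (14.3%) stood beside a background of 10.7%, and the 2 higher ones (4.76%) beside 14.9%, so the share of lower members was near that of all genes. No member was past 2-fold in either direction (background 3.42% lower and 6.04% higher). Of the 37 brighter members 4 were at least 1.5-fold lower (10.8%), beside 4.97% of brighter genes, and 2 were higher (5.41%), beside 6.42%. With median centring, which shifted all genes by -0.25, 15 of 42 were at least 1.5-fold lower, beside 21.9% of all genes, and 1 was higher, beside 8.69%. Both removals were set against the same complete-medium array, so the values after one are not independent of those after the other.

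**Figure D1:**
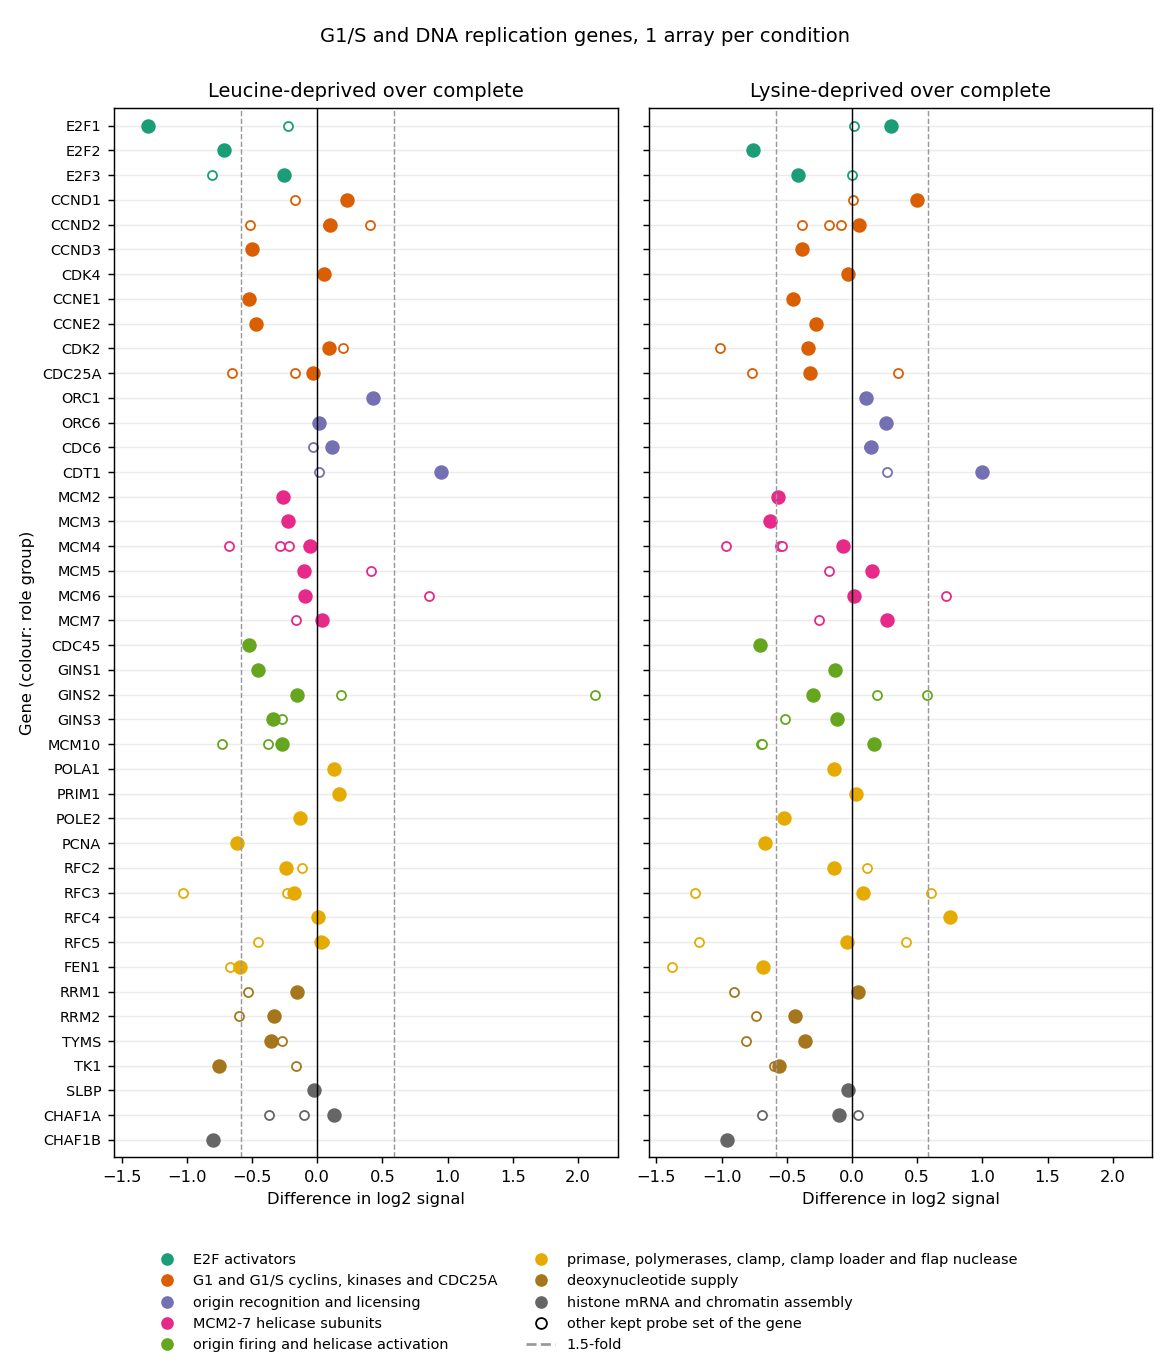
Difference in log2 signal (x axis) for each of the 42 genes (y axis, coloured by role group) on the leucine-deprived array (left) and the lysine-deprived array (right), each over complete medium. Filled points are the probe set that represents the gene, open points its other kept probe sets, and dashed lines mark 1.5-fold; CDT1 stands farthest to the right among filled points in both panels, and E2F1 farthest to the left after leucine removal only, at -1.30.

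The E2F activators E2F1, E2F2 and E2F3 drive S-phase transcription. The signal of E2F1 was 329.9 in complete medium, 134 without leucine and 406 without lysine, which makes it low on the leucine-deprived array alone, by -1.30 against complete medium, while the lysine-deprived array differed by 0.30. Its other probe set read 204, 175 and 207 on the arrays in the same order, a difference of -0.23 after leucine and 0.02 after lysine removal. Both E2F1 probe sets were thus lowest on the leucine-deprived array, but by very different amounts. E2F2 read 235 in complete medium, 143 without leucine and 139 without lysine, lower on both deprived arrays, by -0.71 and -0.76. Of its other probe sets, both below the level filter, one read 47.6, 35.6 and 17.7, under the floor on every array, and the other 10.3, 131 and 10, above the floor on the leucine-deprived array alone. E2F3 read 1586, 1326 and 1193, with differences of -0.26 and -0.41, and its second probe set read 316, 181 and 315, which was -0.81 after leucine and -0.00 after lysine removal. For E2F1 and E2F3 the second probe set was closer to complete medium after lysine than after leucine removal.

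The cyclins, kinases and phosphatase that run G1 and the G1/S switch differed by under 1.5-fold in both comparisons at the gene level. Cyclin D1, the growth-factor-responsive CDK4 partner, read 3625, 4255 and 5129.9 on the complete, leucine-deprived and lysine-deprived arrays, highest without lysine (0.50; 0.23 without leucine). Its other probe set, at 2383, 2111 and 2399, differed by -0.17 and 0.01. CCND2, the cyclin D2 gene, read 18578, 19833 and 19239.5, a span of 0.09 and 0.05 against complete medium, and its 3 dimmer probe sets lay between -0.51 and 0.40 after leucine and between -0.38 and -0.08 after lysine removal. The kinase gene CDK4 was flat at 8520.2, 8828 and 8343. CCND3 and the cyclin E genes were lower on both deprived arrays. CCND3 read 634, 447 and 485 (-0.50 and -0.39), CCNE1 read 1371, 951 and 1002 (-0.53 and -0.45), and CCNE2 read 207, 149.7 and 171 (-0.47 and -0.27). After leucine removal all 3 exceeded the 0.45 SD between probe sets of members, and after lysine removal none exceeded the 0.47 SD. CCNE1, the brightest of them, exceeded the 0.30 SD between brighter probe sets after lysine removal. CDK2, the cyclin E partner, read 1224, 1305 and 968 (0.09 after leucine, -0.34 after lysine removal). Its second kept probe set gave 126, 144 and 32.1, the last of these under the floor, so its difference of -1.01 after lysine removal is a bound. CDC25A, the phosphatase that activates CDK2, had 3 kept probe sets that did not move as one. The brightest read 2399.9, 2343 and 1915 (-0.03 and -0.33), the next 687, 436 and 875 (-0.66 and 0.35) and the dimmest 278, 246 and 164 (-0.17 and -0.76).

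Of the 4 origin recognition and licensing genes only CDT1 was past 1.5-fold. The gene-level values of ORC1, ORC6 and CDC6 lay between 0.01 and 0.43, within the SD between probe sets of members, after both removals. ORC1 after leucine removal exceeded the 0.21 SD between brighter probe sets. CDT1, which loads the helicase together with CDC6, read 1091 in complete medium, 2111 without leucine and 2179 without lysine. Both deprived arrays were high, by 0.95 and 0.998, the latter just under 2-fold. Its second probe set read 348, 350.4 and 418, flat after leucine removal (0.01) and 0.27 after lysine removal, so the size of the CDT1 difference rests on 1 probe set, whose name ends in _x_at, the platform's mark for probes that may also match other transcripts. ORC1, the largest subunit of the origin recognition complex, read 951, 1279 and 1025, highest without leucine (0.43; 0.11 without lysine). ORC6, its smallest subunit, read 3893, 3919.7 and 4657 (0.01 and 0.26), and this probe set carries the same mark as that of CDT1. CDC6 read 1434, 1553 and 1585 on one probe set and 1197, 1168 and 1311 on the other, with differences of 0.11 and -0.04 after leucine and 0.14 and 0.13 after lysine removal.

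The 6 subunits of the MCM2-7 helicase form 1 ring, yet their signals did not differ alike. After leucine removal the gene-level differences ran from -0.26 to 0.04, all under the 0.45 SD between probe sets of members. Those of MCM2 and MCM3 exceeded the 0.21 SD between brighter probe sets. After lysine removal MCM3 and MCM2 stood below the other subunits. MCM3 read 10279.9, 8811 and 6639, -0.63 without lysine against -0.22 without leucine, and MCM2 read 7618, 6363 and 5143, -0.57 against -0.26. Both were lowest on the lysine-deprived array. MCM5 (4692, 4379 and 5219), MCM6 (11312, 10620.2 and 11444) and MCM7 (2545, 2610.2 and 3063) differed by 0.15, 0.02 and 0.27 after lysine removal, and MCM4 (4828, 4648 and 4614) by -0.07. Other probe sets of these genes did not all do the same. The 3 dimmer kept probe sets of MCM4 differed by -0.55, -0.97 and -0.54 after lysine removal, and by -0.28, -0.68 and -0.22 after leucine removal. The second MCM5 probe set read 970.0, 1290.3 and 857, high without leucine (0.41) and -0.18 without lysine. A dim MCM6 probe set read 189, 343 and 312, higher on both deprived arrays (0.86 and 0.72). The second MCM7 probe set, at 2179, 1944 and 1829.8, gave -0.17 and -0.25.

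Of the 5 genes that fire origins none was past 1.5-fold at the gene level after leucine removal, with values from -0.52 to -0.15, and CDC45 alone was after lysine removal. CDC45, the helicase cofactor loaded at firing, read 1008 in complete medium, 703 without leucine and 619 without lysine, lower on both deprived arrays (-0.52 and -0.70). The GINS complex subunit GINS1 read 8406, 6127 and 7698 (-0.46 and -0.13), GINS3 read 1363, 1079 and 1261 (-0.34 and -0.11) and GINS2 read 4048, 3644 and 3297 (-0.15 and -0.30). The second GINS3 probe set gave -0.27 and -0.51. Of the 2 dim GINS2 probe sets, one was high without leucine alone (9.08, 239 and 50; a bound of 2.13, since the other 2 arrays lay under the floor), and the other read 184, 209 and 274 (0.18 and 0.57). MCM10, which helps to start unwinding, read 1312, 1088 and 1476 on its brightest probe set, low without leucine (-0.27) and high without lysine (0.17). Its other probe sets were lower on both deprived arrays, at -0.73 and -0.38 after leucine and -0.70 and -0.69 after lysine removal.

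At the replication fork, the sliding clamp PCNA and the flap nuclease FEN1, which binds PCNA to process Okazaki fragments, were lower on both deprived arrays by similar amounts. PCNA read 19346 in complete medium, 12609 without leucine and 12207 without lysine, a difference of -0.62 and -0.66 on its 1 probe set. FEN1 read 7846 in complete medium, 5195 without leucine and 4898 without lysine, a difference of -0.59 and -0.68, and its second probe set read 2639, 1662 and 1012, a difference of -0.67 and -1.38. In each case the complete-medium array was the highest, and the differences exceeded the SD between probe sets of members. The clamp loader subunits, which open PCNA and place it on DNA, differed from the clamp on their brightest probe sets, while dimmer probe sets of RFC3 and RFC5 were lower than PCNA after lysine removal. RFC4 read 5789 in complete medium, 5811 without leucine and 9750.5 without lysine, high without lysine alone (0.75) and level with complete medium without leucine (0.01), on 1 probe set. RFC2 read 3867, 3275 and 3511 (-0.24 and -0.14), and its other probe set gave -0.11 and 0.12. RFC3 and RFC5 were flat on their brightest probe sets, 3693, 3265 and 3921 for RFC3 (-0.18 and 0.09) and 1951, 1988 and 1895 for RFC5 (0.03 and -0.04), but not on the others. A second RFC3 probe set read 958, 817 and 416 (-1.20 without lysine) and the dimmest 272, 133 and 413 (-1.03 without leucine and 0.60 without lysine). For RFC5 the other readings were 728, 530.4 and 322 (-0.46 and -1.17) and 1413, 1467 and 1886 (0.05 and 0.42). POLA1, the catalytic subunit of the priming polymerase, read 1912, 2092 and 1740.4 (0.13 and -0.14), and the primase PRIM1 read 2643, 2969.7 and 2705 (0.17 and 0.03). POLE2, a subunit of the leading-strand polymerase, read 1375, 1253 and 959.7, lowest without lysine (-0.13 and -0.52).

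Of the 4 genes of deoxynucleotide supply TK1 alone was past 1.5-fold at the gene level, after leucine removal only. TK1, the salvage kinase for thymidine, read 1350.0 in complete medium, 802 without leucine and 918 without lysine, lower on both deprived arrays (-0.75 and -0.56). Its second probe set, at 928, 827 and 612, gave -0.17 after leucine and -0.60 after lysine removal. TYMS, which makes thymidylate, read 12028, 9398 and 9387 (-0.36 and -0.36), and its second probe set 2584, 2143 and 1468 (-0.27 and -0.82). RRM2, the S-phase subunit of ribonucleotide reductase, read 10751, 8534 and 7942 (-0.33 and -0.44), and on its second probe set 7573, 4992 and 4535 (-0.60 and -0.74). RRM1, the large subunit, read 7803, 6993 and 8057 (-0.16 and 0.05), whereas its dimmer probe set read 756, 524 and 404 (-0.53 and -0.90).

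Among the genes that supply and assemble histones, CHAF1B, a subunit of the CAF-1 histone chaperone, was the member lowest after lysine removal. It read 298 in complete medium, 171 without leucine and 154 without lysine, lower on both deprived arrays (-0.80 and -0.96) on 1 dim probe set. CHAF1A, the large CAF-1 subunit, read 2269, 2479 and 2122 (0.13 and -0.10). Its other kept probe sets gave -0.37 and -0.10 after leucine and -0.69 and 0.05 after lysine removal. SLBP, which binds the stem loop of histone mRNAs, was the flattest member, at 3717, 3657 and 3639.5 (-0.02 and -0.03).

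**Figure D2:**
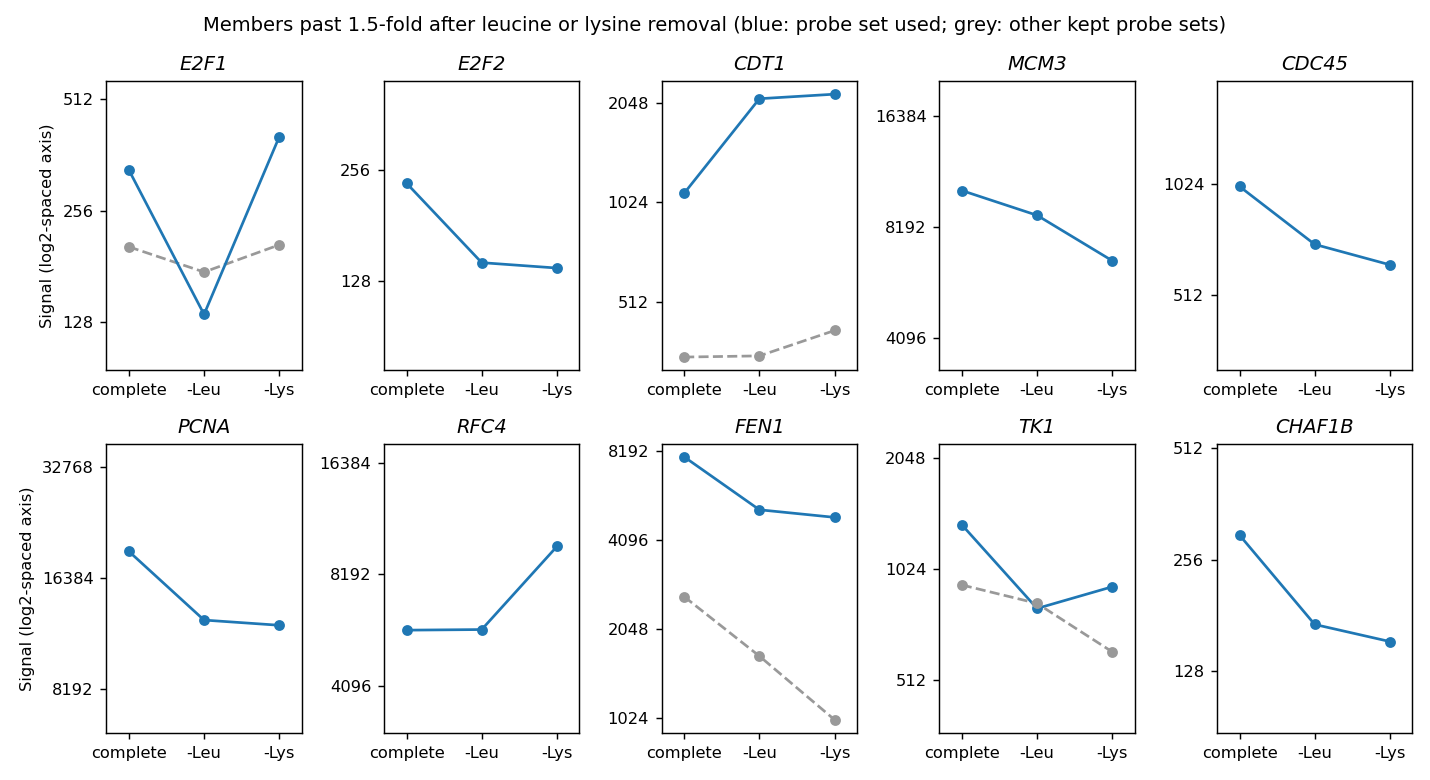
Signal on each array (y axis, log2-spaced, own range per panel; x axis: complete, leucine-deprived and lysine-deprived medium) for the 10 members at least 1.5-fold higher or lower after either removal. Blue points are the probe set that represents the gene and grey points its other kept probe sets, with lines only to join the readings of 1 probe set. PCNA, FEN1, E2F2, CDC45, CHAF1B, TK1 and MCM3 are highest in complete medium, and CDT1 is lowest there.

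Probe sets of the same gene did not always agree. Of the 24 members with 2 or more kept probe sets, 13 had all of them below 0 after leucine removal, 2 had all above 0 and 9 were mixed. After lysine removal these counts were 8, 5 and 11. Over all 76 kept probe sets of members, 13 were at least 1.5-fold lower after leucine removal and 3 higher, beside 9.77% and 12.2% of all 23055 kept probe sets. The 3 higher include a dim GINS2 probe set that passed the level filter only through its leucine-deprived reading. After lysine removal 19 were lower and 4 higher, beside 13.4% and 15.6%. The next-brightest probe set of a member was lower than its brightest, as a difference from complete medium, in 14 of 24 members after leucine and in 17 of 24 after lysine removal (70.8%, against 53.4% of all 5981 genes with 2 or more). The median of next-brightest minus brightest was -0.11 after leucine and -0.32 after lysine removal, against -0.02 and -0.04 over all such genes. Read from the next-brightest probe sets, 5 of 24 members were at least 1.5-fold lower after leucine removal and 1 higher, beside 10.8% and 12.6% of the 5981 genes. After lysine removal 8 of 24 were lower, among them FEN1, RFC3, CDK2 and RRM1, and 1 was higher, beside 15.5% and 15.3%. The arrays also differed in 3′ to 5′ signal: the 3′ end of ACTB was 5.44 times its 5′ end in complete medium, 7.55 times without leucine and 11.2 times without lysine, whereas for GAPDH these ratios were 1.08, 1.23 and 1.25. The part of this in the members' values was not tested.

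**Figure D3:**
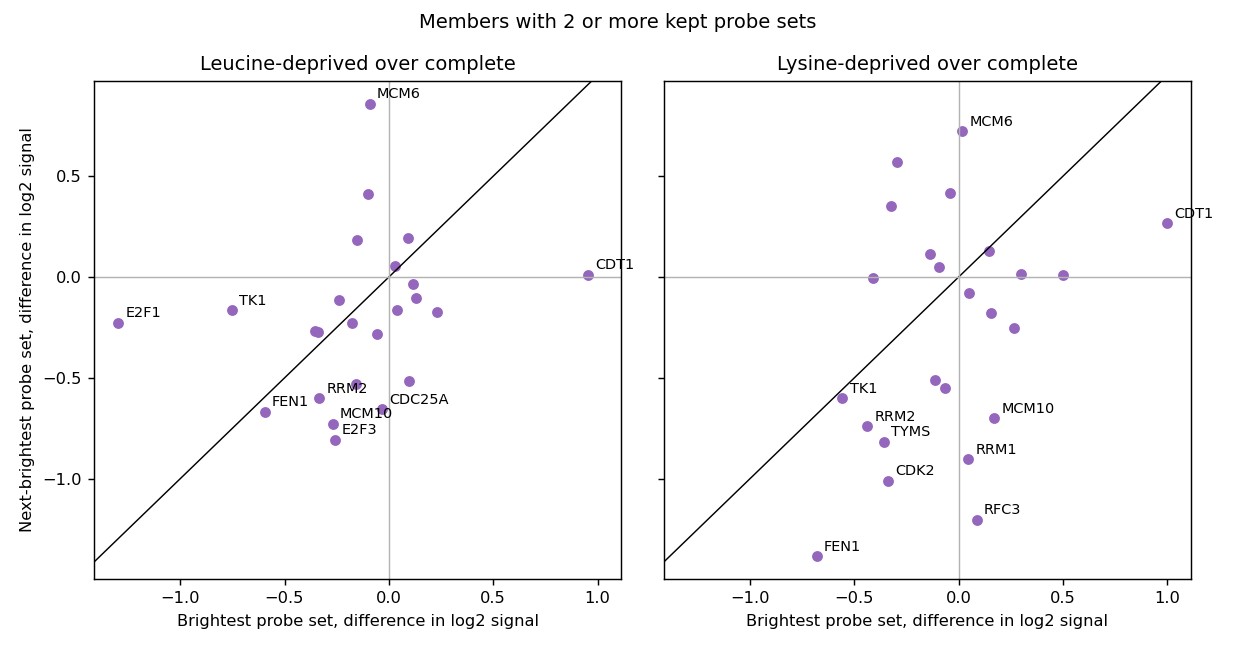
Difference in log2 signal over complete medium of the brightest (x axis) and next-brightest (y axis) kept probe set for the 24 members with 2 or more, after leucine (left) and lysine removal (right). On the diagonal both agree; after lysine removal 17 of 24 points lie below it, with FEN1 (-1.38) and RFC3 (-1.20) lowest on the y axis.

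Leucine- and lysine-deprived cells were then set against each other directly. The differences leave out the complete-medium array, but the level filter and the choice of probe set used all 3 arrays. Members scattered around 0, with 23 of 42 above it and a median of 0.01, against 0.02 over all genes. At least 1.5-fold lower without leucine than without lysine were 2 members (4.76%, background 11.3%), E2F1 (-1.60) and RFC4 (-0.75), of which E2F1 was past 2-fold (background 4.85%). None was at least 1.5-fold higher (background 10%) or 2-fold higher (background 3.59%). Of the 37 brighter members 1 was at least 1.5-fold lower (RFC4; 2.70%), beside 2.58% of brighter genes. Among them 0 were higher, beside 2.64% of brighter genes, so the share of lower members was near that of genes of like level. The second E2F1 probe set differed by -0.24, and RFC4 had only 1. PCNA (0.05), FEN1 (0.09), CDT1 (-0.05), E2F2 (0.05), TYMS (0.00) and SLBP (0.01) lay within 0.10 of 0. Over all 76 kept probe sets of members 5 were at least 1.5-fold lower without leucine than without lysine and 7 higher, beside 13% and 12.6% of all kept probe sets. Besides E2F1 and RFC4 these were dimmer probe sets of genes whose brightest lay under 1.5-fold: E2F3 (-0.80), CDC25A (-1.01 and 0.59), RFC3 (-1.63 and 0.97), MCM5 (0.59), RFC5 (0.72), FEN1 (0.72), and CDK2 (1.20) and GINS2 (1.94), the last 2 as bounds. That GINS2 probe set passed the level filter only through its leucine-deprived reading.

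A further 81 genes of the same pathway, listed by function, give the surroundings of the members, and 78 of them passed the level filter. After leucine removal 6 of 78 were at least 1.5-fold higher (7.69%) and 2 lower (2.56%), beside 10.9% and 7.74% of all genes, with a median of -0.04. After lysine removal 7 were higher (8.97%) and 4 lower (5.13%), beside 14.9% and 10.7%, with a median of -0.08. Among the 6481 brighter genes the shares higher and lower were 3.7% and 1.67% after leucine removal. After lysine removal they were 6.42% and 4.97%. The 78 genes hold both brighter and dimmer ones, so neither background is matched to them in level. Past 2-fold after lysine removal was CDKN2D, an inhibitor of CDK4 and CDK6 that was dim (75.3, 125 and 175; 1.22), and none was past 2-fold after leucine removal. The highest after leucine removal were MYC (2367, 4402 and 3315; 0.89), the growth regulator, and CDK6 (703, 1277 and 1124; 0.86), a kinase partner of D-type cyclins. Other kept probe sets of CDK6 differed by 0.01, 0.96 and 1.03 after leucine removal. The lowest were DNA2 (714, 449.6 and 377; -0.67), a nuclease that acts beside FEN1, and E2F4 (523, 343 and 500.0; -0.61), a repressor E2F. A dimmer E2F4 probe set was lower after both removals, by -0.95 and -0.67. After lysine removal the second highest was CLSPN (186, 258 and 318; 0.77), a fork checkpoint adaptor whose next probe set, under the floor without lysine, gave a bound of -0.43, and the lowest were DNA2 (-0.92) and POLA2 (519.5, 382 and 302; -0.78), a subunit of the priming polymerase whose next probe set differed by 0.46. Between the deprived arrays, LIN54, a dim DREAM complex gene, was past 2-fold (113, 199 and 96.5; 1.05), CDKN1A, the p21 inhibitor, was next highest (689, 1000.2 and 643; 0.64), and RBL1 (-0.89) and RB1 (-0.70), pocket proteins that hold E2F in check, were lowest.

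The G2/M genes, which act after replication, are the neighbouring stage of the cycle, and 25 of 25 listed passed the level filter. After leucine removal their median was -0.10 beside -0.15 for the G1/S and replication genes, with 2 of 25 (8%) and 6 of 42 (14.3%) at least 1.5-fold lower, against 7.74% of all genes. Of brighter genes 1.67% were, and both lists hold brighter and dimmer genes. The lowest were CDK1 (7267, 4506 and 6434; -0.69), the mitotic kinase, and KIF23 (1560.1, 1039 and 1174; -0.59), a motor of cell division, and the highest were CDC25C (0.38) and PLK1 (0.34). After lysine removal their median was -0.44 beside -0.12, with 22 of 25 (88%) and 27 of 42 (64.3%) below 0, against 49.5% of all genes. At least 1.5-fold lower were 8 of 25 (32%) and 6 of 42 (14.3%), against 10.7% of all genes and 4.97% of brighter genes. PLK1 (298, 377 and 75.2; -1.99) and KIF20A (1666, 1673 and 823; -1.02), which act in mitosis, were past 2-fold lower, and MKI67 (0.11) and KIF11 (0.08) were highest. PLK1 was dim, and its reading without lysine lay just above the floor of 62.4. Between the deprived arrays PLK1 (2.33) and KIF20A (1.02) were past 2-fold, and CDK1 (-0.51) and KIF23 (-0.18) lowest. No test of the difference between the lists is possible with 1 array per condition.

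**Figure D4:**
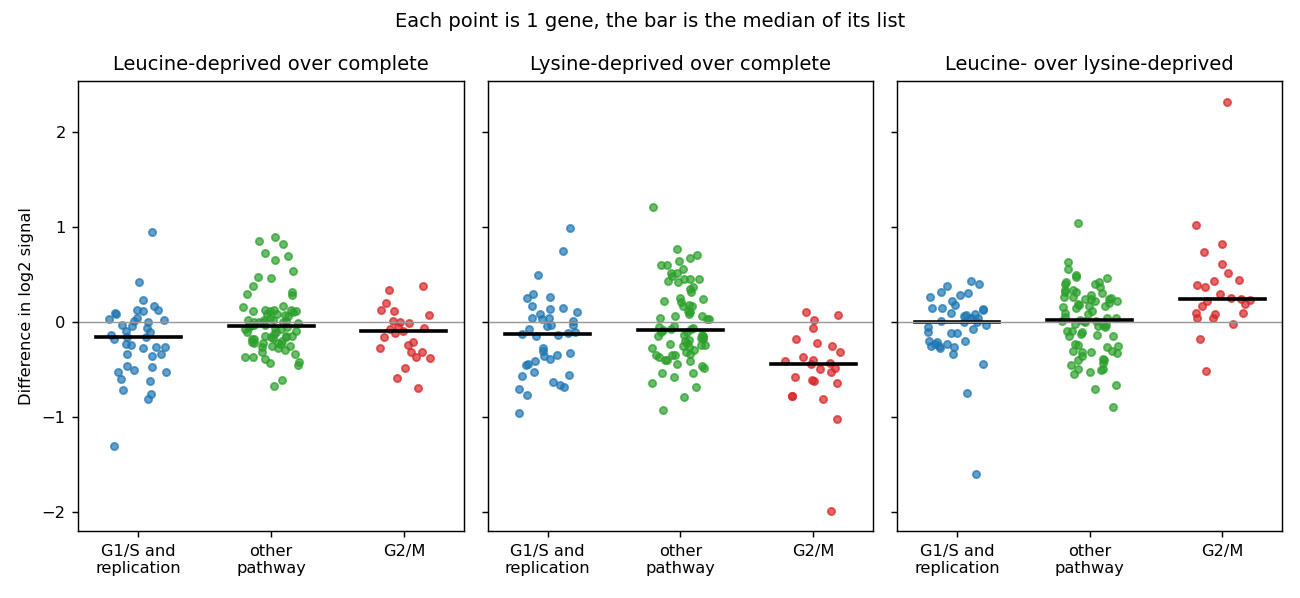
Difference in log2 signal (y axis) for the 42 G1/S and replication genes, 78 other pathway genes and 25 G2/M genes (x axis) in each comparison. Each point is 1 gene and the bar is the median, which after lysine removal lies at -0.12, -0.08 and -0.44.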

How the data were processed

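One array was made for each of 3 conditions. A column kit gave the RNA, of which 100 ng was labelled by a 3′ in vitro transcription protocol, per the labels. The authors deposited linear signal intensity values from MAS5, per the submitters' processing notes; no version is given in the sources used here. The mean after trimming 2% at either end was 500.1 on each array, so total mRNA differences between arrays are removed. Probe sets were named from the platform annotation, and probe sets with several gene symbols were left out. Signals were floored, taken to log2 and filtered on level, and the brightest kept probe set stood for a gene. With 1 array per condition no test was run. Every member was named. Members past 1.5-fold, or with probe sets of opposite sign of which 1 was past 1.5-fold, got signals on all arrays. Of the other pathway and G2/M genes, those past 2-fold and the 2 highest and 2 lowest per comparison were named. The 4 promoters were chosen after their values were seen. Members and lists were chosen with earlier results of these data known. Promoters and motif counts used RefSeq windows. Alternatives changed the scaling, floor, level filter, choice of probe set and fold threshold. The calculations were tested on simulated data. Python 3.11.15, numpy 2.4.6, pandas 2.3.3 and matplotlib 3.10.9 did the calculations. Precision is limited by the number of arrays.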

Additional observations from a re-analysis of the deposited data

Results flagged for a closer look

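Probe sets of 4 members differed from complete medium in opposite directions after the 2 removals while the deprived arrays were at least 2-fold apart. None of these differences was tested, since each condition had 1 array. The brightest E2F1 probe set differed from complete medium by -1.30 without leucine and by 0.30 without lysine, a gap of -1.60 between the deprived arrays. Its other probe set had a gap of -0.24, and E2F1 lay below the median level of the genes kept. The second CDC25A probe set lay at -0.66 and 0.35, a gap of -1.01, while its brightest probe set had a gap of 0.29. The dimmest RFC3 probe set lay at -1.03 and 0.60, a gap of -1.63, while the other RFC3 probe sets had gaps of -0.26 and 0.97. The second CDK2 probe set lay at 0.19 and -1.01, a gap of 1.20, where the lysine value and the gap are bounds because that reading was under the floor, while its brightest probe set had a gap of 0.43.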

How the results depend on the processing

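No paired analysis was possible because each condition had 1 array. With the floor at the 20th percentile no summary moved. Each array's median signal differed (82.8, 90.6 and 98.2), so median centring moved the median of all genes to -0.12 after leucine removal, -0.24 after lysine removal and 0.13 between the deprived arrays; differences of members are best read relative to it. It gave 11 members at least 1.5-fold lower after leucine removal. After lysine removal it gave 15 members lower, 1 higher, 2 at least 2-fold lower, 481 and 858 genes in all 2-fold higher and lower, and 18 other pathway and 17 G2/M genes past 1.5-fold; higher genes then made up 35.9% of those past 2-fold, against 63.9%, and for leucine removal 42.3% against 59.5%. Between the deprived arrays this share was 55.1% against 42.5%. Quantile normalization put 1 member 2-fold higher and 1 lower after lysine removal. The floor at the 60th percentile left 161 genes 2-fold higher and 71 lower after leucine removal, 294 and 143 after lysine removal and 128 and 162 between the deprived arrays. It put the median of members at -0.26 relative to all genes after lysine removal and, reversed, at 0.11 between the deprived arrays (from -0.01), and those of other pathway and G2/M genes at -0.21 and -0.59 and at 0.13 and 0.36. Without the level filter these became -0.31 and, again reversed, 0.13 for members, and -0.26, -0.63, 0.14 and 0.37 for the other lists, with 1268 genes 2-fold higher after lysine removal and 1081 lower between the deprived arrays. Under both settings 19775 genes were kept. The median of members itself stayed at -0.12 after lysine removal, and was 0.00 and 0.01 between the deprived arrays. What moved was the median of all genes, to 0.14 and -0.11 with the higher floor and to 0.19 and -0.12 without the filter. With log2(value + 32) and no floor, 326 genes were 2-fold higher after leucine removal, 410 were lower between the deprived arrays and 1 G2/M gene was past 1.5-fold after leucine removal. A level filter at the 70th percentile left 39 members and 101 genes 2-fold higher and 35 lower, 184 and 94, and 74 and 71 in the 3 comparisons. Averaging each gene's kept probe sets put the median of members, relative to all genes, at -0.25 after leucine and -0.24 after lysine removal (from -0.17 and -0.12), with 0 members 2-fold lower after leucine removal, 1 after lysine removal and 0 between the deprived arrays, where 1 was 1.5-fold higher. Without _x_at and _s_at probe sets 30 members remained measurable; 0 were 1.5-fold higher after leucine removal (CDT1 dropped out), 1 after lysine removal and 1 between the deprived arrays, where 3 G2/M genes were past 1.5-fold. The next-brightest probe set, an alternative chosen after seeing the data, covered 24 members and 5981 genes. It gave 0 members 2-fold lower after leucine removal, 3 lower and 1 at 1.5-fold higher after lysine removal, and 1 at 2-fold and 4 at 1.5-fold higher between the deprived arrays. It gave 248 genes 2-fold higher and 217 lower after leucine removal, 360 higher after lysine removal and 339 lower between the deprived arrays, where 10 other pathway genes were past 1.5-fold. Relative to all genes, G2/M medians were then -0.21 and -0.57, and those of other pathway genes -0.21 after lysine removal and 0.089 between the deprived arrays. At 1.5-fold, counts were 1 and 6 members and 1415 and 1003 genes higher and lower after leucine removal, 2 and 6 members and 1927 and 1393 genes after lysine removal, and 2 lower members with 1300 and 1467 genes between the deprived arrays. Of 1161 values of single members under alternatives, 1129 stayed within the SD between probe sets of all genes (0.49, 0.57 and 0.58) and 32 moved beyond it. Many could not move beyond it. No representative lay at the floor, so a lower floor or another level filter could not change a member's value. Median centring shifted all genes by -0.13, -0.25 and 0.12, less than this SD. For the 18 members with 1 kept probe set averaging could change nothing. The count is therefore no measure of stability. No member past 1.5-fold changed sign. Of these, E2F2, CDC45, MCM3, PCNA, RFC4 and CHAF1B had only 1 kept probe set. For them averaging could change nothing, and there was no next-brightest probe set to use. Of the listed genes outside the members, those past 1.5-fold that changed sign were RECQL4 (-0.021, next probe set, leucine), CDKN1C (-0.082 with the mean, -0.29 with the next probe set), POLA2 (0.46 both without marked probe sets and with the next), CCNB1 (0.19 in both) and CLSPN (-0.43, next, a bound) after lysine removal, and CENPF (-0.11) and CCNF (-0.0082) between the deprived arrays with the next probe set. The causes were not tested.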
